A study of Mus musculus with 4 samples.

Results

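Triglyceride synthesis and glyceroneogenesis were represented by 10 genes, namely *Gpam*, *Agpat2*, *Agpat3*, *Lpin1*, *Lpin2*, *Lpin3*, *Dgat1*, *Dgat2*, *Gpd1* and *Pck1*. They were taken by symbol from the 19030 genes of the expression table, and all 10 were listed and passed the filter on low values. RNA was sequenced from the inguinal white fat (ingWAT), which lies under the skin, of C57BL/6 mice aged 3 months and kept at 4°C. Ctrl mice carry *Oct3* alleles flanked by loxP sites (*Oct3* fl/fl). The cKO mice, labelled Oct3 deficient, carry the floxed alleles together with Adiponectin-Cre, in which the adiponectin promoter drives the recombinase in adipocytes, so that other cells of the depot keep *Oct3*. Oct3 is a transporter that takes norepinephrine into adipocytes. There were 2 libraries of each genotype, no group at another temperature, and no statement of how many mice a library holds, so that p-values measure only the spread between these libraries, which may be technical.

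Triglyceride is built on glycerol 3-phosphate. Glycerol-3-phosphate acyltransferases, such as the mitochondrial enzyme of *Gpam*, add a fatty acid to give lysophosphatidate, and 1-acylglycerol-3-phosphate acyltransferases (*Agpat* genes) add another to give phosphatidate. Lipins remove the phosphate to leave diacylglycerol, and the diacylglycerol acyltransferases of *Dgat1* and *Dgat2*, which are unrelated in sequence, complete the triglyceride. The glycerol 3-phosphate comes mainly from dihydroxyacetone phosphate, which *Gpd1* reduces. Glycolysis supplies dihydroxyacetone phosphate, and so does glyceroneogenesis, which starts from pyruvate and amino acids. The cytosolic phosphoenolpyruvate carboxykinase of *Pck1* is the key enzyme of glyceroneogenesis. In white adipocytes glycerol kinase is scarce, so the glycerol freed by lipolysis largely leaves the cell, whereas in brown fat the enzyme is abundant.

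Expression was given as FPKM, the reads of a gene per kilobase of its transcript, scaled to the mapped reads of the library, so that levels can be set side by side between genes. FPKM summed to between 484152 and 497839 per library, and the depth, estimated from the steps between the values of short RNA genes, was between 17400000 and 18200000 reads. At that depth *Lpin3*, the lowest member, stood for between 118 and 178 reads per library, with a counting error of 7.5% to 9.21%, *Lpin2* for 292 to 325 reads, and every other member for at least 3038. The targeted gene, *Slc22a3*, the symbol under which Oct3 is listed, was found at 16.95 and 17.68 FPKM in the Ctrl libraries and at 9.07 and 9.5 FPKM in the cKO libraries, lower in both (log2 fold change -0.83, limma adjusted p = 0.000439). The test was that of limma on log2(FPKM + 1), run across 12658 genes whose FPKM averaged 1 or more. A gene was called when its p, adjusted by the Benjamini-Hochberg method over these genes, was under 0.05. A positive log2 fold change means higher in cKO, on the scale of that logarithm, which understates the change of low genes.

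Markers of several cell types differed between the genotypes. The adipocyte genes *Adipoq*, *Plin1*, *Fabp4*, *Lep*, *Cidec* and *Retn* were present at 33.6 FPKM or more in every library. Of these 6 adipocyte genes 3 (*Adipoq*, *Lep* and *Retn*) were called lower in cKO and 0 higher. *Plin1*, *Fabp4* and *Cidec* were not called, with log2 fold changes of -0.07, -0.25 and 0.07. All 6 brown adipocyte markers were called higher, their summed FPKM going from 1514 and 1790 in Ctrl to 4773 and 4034 in cKO. All 13 skeletal muscle genes had both cKO libraries below both Ctrl libraries, with a summed FPKM of 2616 and 1771 in Ctrl and 47.9 and 47.3 in cKO, and none of them was at 0. All 6 B cell markers and all 6 T cell markers had both cKO libraries above both Ctrl libraries. In each of these lists 5 were called higher. All 6 fibroblast progenitor markers had both below, with 5 called lower. All 6 endothelial markers had both below too, but only 3 were called. The macrophage markers were mixed, with 2 of 6 above and 4 below. Such a lack of overlap was found for 66.5% of all genes tested, and 25.8% were called in either direction. Of the keratinocyte and epithelial genes only *Krt10* passed the filter. How far these shifts contribute to the values of the pathway genes was not tested, and in whole tissue fewer cells of a type and less RNA per cell cannot be told apart.

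In cKO ingWAT *Gpd1* and *Pck1*, whose products supply glycerol 3-phosphate, rose, as did *Agpat3*, while *Dgat2*, which completes the triglyceride, and the low-level *Lpin3* fell. *Gpam*, *Agpat2*, *Lpin1*, *Lpin2* and *Dgat1* were not called. Of the 10 members 3 were thus called higher and 2 lower, where 12.0% of all genes tested were called higher, 13.8% lower and 25.8% in either direction. Their median log2 fold change was 0.09, against -0.01 for all genes tested. In 7 members both cKO libraries lay above both Ctrl libraries and in 2 both lay below, but the genotypes did not overlap for 66.5% of all genes tested (31.9% above and 34.6% below), so that a lack of overlap by itself says little here.

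**Figure D1:**
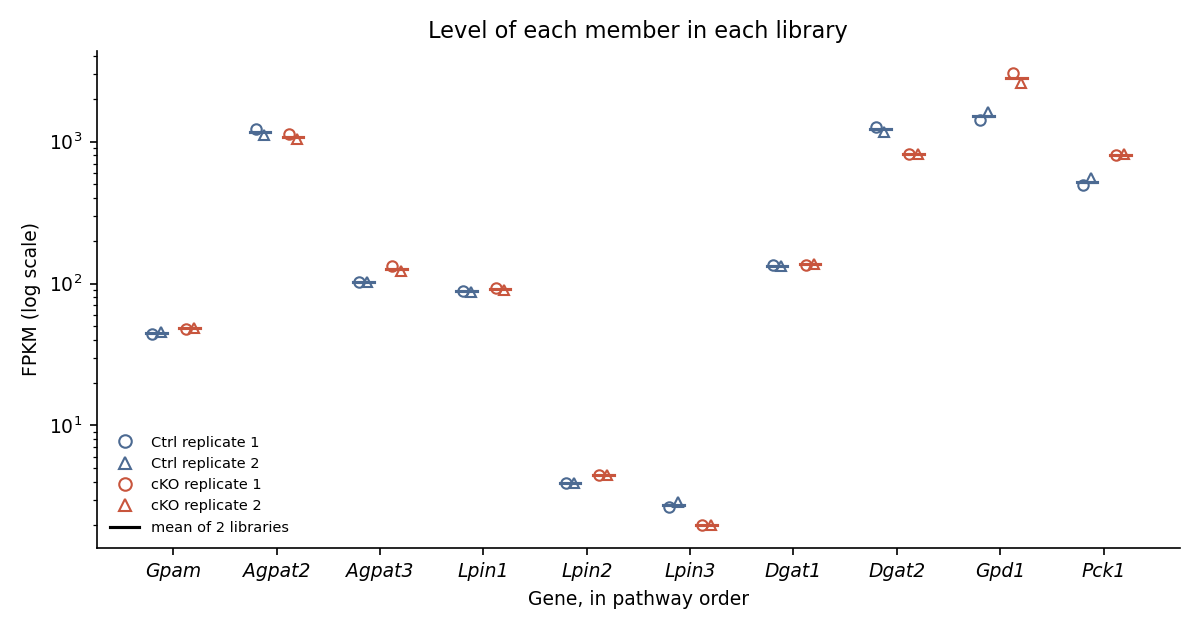
FPKM (log scale) of the 10 members in pathway order, with 1 symbol per library (circles, replicate 1; triangles, replicate 2; blue, Ctrl; red, cKO) and a line at the mean of 2 libraries. Gpd1 and Pck1 stand higher and Dgat2 and Lpin3 lower in both cKO libraries, and the levels span from a mean of 1.98 FPKM (Lpin3 in cKO) to 2799 FPKM (Gpd1 in cKO).

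The levels of the members spanned 3 orders of magnitude. By mean FPKM over the 4 libraries *Gpd1* ranked number 13 among the 19030 genes, *Agpat2* number 34, *Dgat2* number 42 and *Pck1* number 100. In Ctrl the order ran from *Gpd1* (1514 FPKM) through *Dgat2* (1225), *Agpat2* (1171), *Pck1* (523), *Dgat1* (134), *Agpat3* (103), *Lpin1* (87.9), *Gpam* (44.8) and *Lpin2* (3.92) to *Lpin3* (2.76). *Dgat2* and *Agpat2* overlapped there, and all other neighbours were separate. In cKO *Agpat2* (1081 FPKM) stood above *Dgat2* (823 FPKM) without overlap, *Dgat2* stood just above *Pck1* (810 FPKM), and the order of the other members was that of Ctrl. Each step of the pathway therefore had a gene for a high-level enzyme, apart from the glycerol-3-phosphate acyltransferases and the lipins, whose highest members stayed under 100 FPKM.

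*Gpd1* (Entrez gene 14555, GRCm38 chromosome 15, 99717587 to 99725014) encodes the cytosolic glycerol-3-phosphate dehydrogenase, which turns dihydroxyacetone phosphate into glycerol 3-phosphate. It stood at 1413 and 1616 FPKM in the Ctrl libraries and at 3026 and 2572 FPKM in the cKO libraries. Both cKO libraries were well above both Ctrl libraries, by more than the spread within either genotype. The mean rose from 1514 ± 143 to 2799 ± 320 FPKM (SD, n = 2 each), or 1.85 times, and the log2 fold change was 0.88 (standard error, SE, 0.115, 95% confidence interval 0.61 to 1.16, limma adjusted p = 0.00224). It was the highest and the most increased of the members. The call depended on Ctrl replicate 1, without which the log2 fold change was 0.79 with an adjusted p = 0.0797.

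*Pck1* (Entrez gene 18534, GRCm38 chromosome 2, 173153073 to 173159274) was listed at 494 and 552 FPKM in Ctrl and at 806 and 815 FPKM in cKO. The cKO libraries lay close together and above both Ctrl libraries. The rise from 523 ± 41.5 to 810 ± 6.45 FPKM (SD, n = 2 each) came to a log2 fold change of 0.63 (SE 0.0779, 95% confidence interval 0.45 to 0.82, limma adjusted p = 0.00183). Without Ctrl replicate 1 the log2 fold change was 0.55 and the adjusted p = 0.0511. The brown adipocyte markers rose and the muscle genes fell in the same libraries, and the part of either in the rise of *Gpd1* and *Pck1* was not tested.

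Of the 7 other genes grouped with the supply of glycerol 3-phosphate, 6 could be tested. *Gk* (Entrez gene 14933), which encodes glycerol kinase, had 7.73 and 9.42 FPKM in Ctrl and 20.2 and 19.4 FPKM in cKO. This was the largest rise of all the pathway genes, with a log2 fold change of 1.13 (SE 0.0928, limma adjusted p = 0.000485), although the level of *Gk* remained far below that of *Gpd1*. *Gpd2*, the mitochondrial dehydrogenase that takes glycerol 3-phosphate back to dihydroxyacetone phosphate and feeds electrons into the respiratory chain, rose as well, from 73.3 and 90.8 FPKM to 141 and 130 FPKM (log2 fold change 0.73, limma adjusted p = 0.00285). *Gpd1* exceeded *Gpd2* by 19.3 and 17.8 times in the Ctrl and by 21.4 and 19.7 times in the cKO libraries, where both ratios lay just above those of Ctrl. The gene for pyruvate carboxylase, *Pcx*, whose product makes the oxaloacetate that *Pck1* uses, went the other way. It was listed at 443 and 426 FPKM in Ctrl and at 316 and 320 FPKM in cKO, a log2 fold change of -0.45 (limma adjusted p = 0.00268). Without Ctrl replicate 1 this call was lost too (log2 fold change -0.42, adjusted p = 0.0569), while those of *Gk* and *Gpd2* were kept.

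Within each library the FPKM of *Pck1* was 1.11 and 1.3 times that of *Pcx* in the Ctrl libraries and 2.55 times in both cKO libraries. *Pck2*, the mitochondrial carboxykinase, was at 7.13 and 7.10 FPKM in Ctrl and at 6.48 and 7.37 in cKO (95% confidence interval of the log2 fold change -0.23 to 0.16). *Gpd1l*, a relative of *Gpd1*, was at 13.3 and 13.7 FPKM in Ctrl and at 12.4 and 14.8 in cKO, with an interval of -0.21 to 0.21. *Aqp7*, the glycerol channel of adipocytes, had 34.78 and 35.64 FPKM in Ctrl and 35.76 and 37.03 in cKO, with an interval of -0.09 to 0.18. The genotypes overlapped for *Pck2* and *Gpd1l*, and for *Aqp7* they were barely apart. *Aqp3*, another glycerol channel, had a mean FPKM of 0.915 over the 4 libraries and was not tested.

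The start regions of *Pck1* and *Gk*, which rose, and of *Lpin3*, which fell, are shown as examples of called genes whose start region holds a motif, and were chosen after the search. The called genes *Agpat3*, *Gpd2*, *Mogat1* and *Plpp3* had start regions with none of the motifs searched, and *Pcx* and *Crls1*, also called, had motifs in theirs but are not printed. The sequences were taken from RefSeq (GRCm38.p6), from 250 bases before the start to 50 bases from it, and are written 5′ to 3′ on the strand of the gene. That of *Pck1* is chr2:173152823-173153122 (+ strand), that of *Gk* chrX:85776770-85777069 (- strand) and that of *Lpin3* chr2:160880420-160880719 (+ strand, the first of 2 starts listed). Capitals mark 3 motifs searched on both strands, namely the core of the cAMP response element (TGACG, which reads CGTCA from the other strand), the nuclear receptor element (AGGTCA, which reads TGACCT from the other strand) and the E-box (CACGTG, which reads alike from both).
Pck1: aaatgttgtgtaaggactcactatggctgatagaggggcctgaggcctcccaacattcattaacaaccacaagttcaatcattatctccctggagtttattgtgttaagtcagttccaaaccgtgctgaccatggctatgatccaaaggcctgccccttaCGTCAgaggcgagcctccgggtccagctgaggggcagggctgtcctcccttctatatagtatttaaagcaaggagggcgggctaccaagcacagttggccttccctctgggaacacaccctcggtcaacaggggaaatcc
Gk: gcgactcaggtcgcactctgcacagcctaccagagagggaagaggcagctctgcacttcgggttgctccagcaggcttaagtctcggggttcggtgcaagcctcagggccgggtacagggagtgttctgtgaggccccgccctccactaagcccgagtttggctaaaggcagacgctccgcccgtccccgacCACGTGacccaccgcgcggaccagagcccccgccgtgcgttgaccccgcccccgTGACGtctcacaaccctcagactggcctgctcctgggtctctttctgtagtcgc
Lpin3: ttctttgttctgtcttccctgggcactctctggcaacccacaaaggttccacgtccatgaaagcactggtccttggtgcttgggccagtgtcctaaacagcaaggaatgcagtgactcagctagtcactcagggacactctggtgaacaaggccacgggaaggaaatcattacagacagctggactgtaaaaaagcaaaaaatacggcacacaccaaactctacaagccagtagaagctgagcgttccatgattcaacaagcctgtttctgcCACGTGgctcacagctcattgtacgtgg
In *Pck1* the cAMP response element core was found at 90 bases before the start. *Gk* held an E-box at 58 bases and a cAMP response element core at 4 bases before the start, and *Lpin3* held an E-box 23 bases into the transcript. No 2 of the motifs overlapped in these sequences. The table holds 32851 start regions, of which 20.8% held the cAMP response element core, 16.3% the nuclear receptor element and 7.15% the E-box. Start regions were found for 7 of the 10 members, but not for *Dgat1*, *Dgat2* and *Gpd1*. Of these 7 genes, 3 had the cAMP response element core in at least 1 start region (*Gpam*, *Lpin2* and *Pck1*). Only *Pck1* of these was called. This count is by gene, whereas the percentages are by start region, and *Gpam* had 2 start regions and *Lpin2* had 3. A match of letters does not show that a factor is bound.

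Of the genes for the initial acylation, *Gpam* and *Gpat4* stood at similar levels in Ctrl, and the others were lower. *Gpam* (Entrez gene 14732) had 44.1 and 45.5 FPKM in Ctrl and 48.2 and 48.9 FPKM in cKO. Both cKO libraries were above both Ctrl libraries, but the log2 fold change of 0.11 did not pass (SE 0.0547, 95% confidence interval -0.02 to 0.24, limma adjusted p = 0.177). *Gpat4*, which encodes an enzyme of the endoplasmic reticulum for the same reaction, rose from 41.4 and 46.8 FPKM to 64.4 and 62.6 FPKM, with a log2 fold change of 0.52 (SE 0.0712, limma adjusted p = 0.00274). In Ctrl its FPKM was 0.938 and 1.03 times that of *Gpam*, and in cKO 1.34 and 1.28 times. *Gpat3*, listed in the table as *Agpat9* and another enzyme of the endoplasmic reticulum, had 24.97 and 24.57 FPKM in Ctrl and 19.97 and 22.46 in cKO, lower in both cKO libraries but not called (log2 fold change -0.22, limma adjusted p = 0.0646). It was called when genes under a mean FPKM of 5 were left out (adjusted p = 0.0423) and without cKO replicate 2 (log2 fold change -0.30, adjusted p = 0.0400). *Gpat2* had a mean of 0.0950 FPKM and was not tested.

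**Figure D2:**
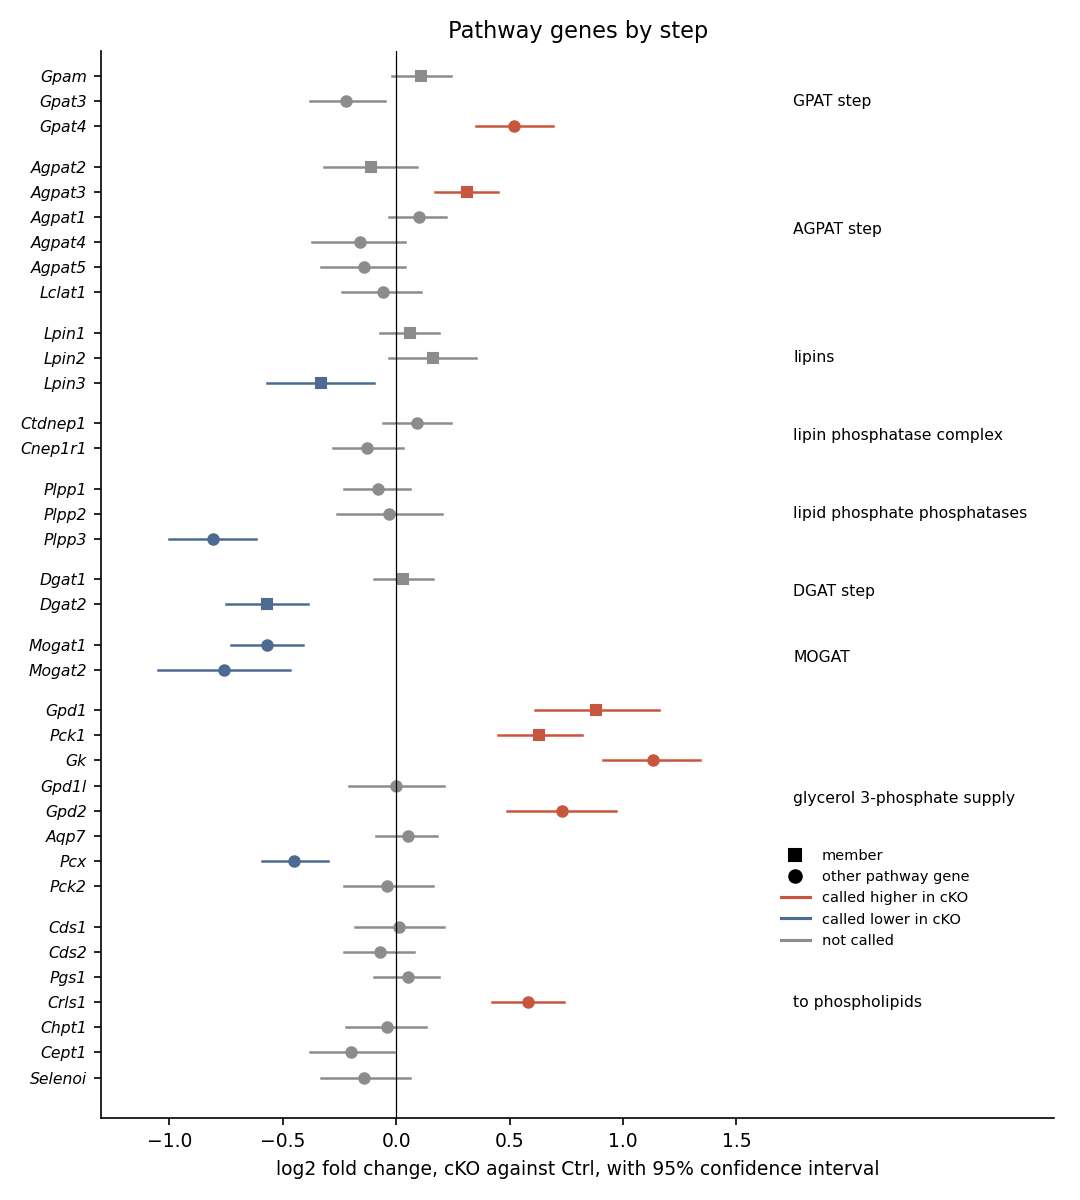
Log2 fold change of cKO against Ctrl with its 95% confidence interval from limma for the 36 pathway genes tested, grouped by step (squares, the 10 members; circles, the other pathway genes; red, called higher; blue, called lower; grey, not called). Red are Gpd1, Pck1 and Gk in the supply of glycerol 3-phosphate, and Gpat4, Agpat3 and Crls1. Gpd2, also red, is drawn in the supply group, although its product takes glycerol 3-phosphate back to dihydroxyacetone phosphate. Blue are Dgat2, Mogat1, Mogat2, Pcx, Lpin3 and Plpp3.

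At the next acylation *Agpat3* was called and *Agpat2* was not. *Agpat2* (Entrez gene 67512), the main gene of this step in fat, whose loss causes lipodystrophy, stood at 1225 and 1116 FPKM in Ctrl and at 1124 and 1037 FPKM in cKO. The genotypes overlapped, and the log2 fold change was -0.11 (SE 0.0861, 95% confidence interval -0.32 to 0.09, limma adjusted p = 0.372). After quantile normalization it was -0.23 and passed (adjusted p = 0.0372). *Agpat3* (Entrez gene 28169, GRCm38 chromosome 10, 78269174 to 78352497) had 103 FPKM in both Ctrl libraries and 132 and 123 FPKM in cKO. It rose by 24.0% on the mean, a log2 fold change of 0.31 (SE 0.0597, 95% confidence interval 0.17 to 0.45, limma adjusted p = 0.0103). This call was lost without Ctrl replicate 1 (adjusted p = 0.0937), without Ctrl replicate 2 (adjusted p = 0.0752) and without cKO replicate 1 (log2 fold change 0.25, adjusted p = 0.0511). *Agpat2* exceeded *Agpat3* by 11.9 and 10.9 times in Ctrl and by 8.52 and 8.45 times in cKO. The other 4 genes of the family, *Agpat1*, *Agpat4*, *Agpat5* and *Lclat1*, were not called, with log2 fold changes from -0.16 to 0.10. *Agpat1* was the highest of these, at 65.0 and 64.4 FPKM in Ctrl and 68.4 and 70.0 FPKM in cKO.

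Of the lipins, which dephosphorylate phosphatidate and also act on transcription in the nucleus, *Lpin1* was by far the highest. *Lpin1* (Entrez gene 14245) had 88.7 and 87.0 FPKM in Ctrl and 93.4 and 89.6 FPKM in cKO, a log2 fold change of 0.06 that did not pass (95% confidence interval -0.07 to 0.19, limma adjusted p = 0.489). *Lpin2* (Entrez gene 64898) had 3.93 and 3.90 FPKM in Ctrl and 4.51 and 4.47 in cKO. Its libraries were separate, yet the log2 fold change of 0.16 did not pass either (95% confidence interval -0.03 to 0.35, limma adjusted p = 0.197). *Lpin3* (Entrez gene 64899, GRCm38 chromosome 2, 160880670 to 160906000) went from 2.65 and 2.87 FPKM in Ctrl to 1.98 and 1.99 FPKM in cKO. Both cKO libraries were below both Ctrl libraries, with a log2 fold change of -0.33 (SE 0.0986, 95% confidence interval -0.57 to -0.10, limma adjusted p = 0.0467). The call was the least firm of the 5, since it was lost without the filter on low values (adjusted p = 0.0876), after quantile normalization (log2 fold change -0.25, adjusted p = 0.0955) and with any 1 library left out (adjusted p from 0.0998 to 0.205).

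Within the summed FPKM of the lipins *Lpin1* made up 93.1% and 92.8% in the Ctrl libraries and 93.5% and 93.3% in the cKO libraries. The share of *Lpin2* was 4.13% and 4.16% in Ctrl and 4.51% and 4.66% in cKO, and that of *Lpin3* 2.78% and 3.06% against 1.98% and 2.07%. None of these shares overlapped between genotypes, and each gave an exact permutation p = 0.333, the smallest that 2 libraries against 2 allow in a two-sided test. The shares add up to the whole within a library, so they are not separate results. The FPKM of 66.5% of all genes tested did not overlap either. *Ctdnep1* and *Cnep1r1*, which encode the phosphatase complex that activates lipins, were not called, with log2 fold changes of 0.09 and -0.13 (limma adjusted p = 0.338 and 0.216).

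*Dgat2* fell and *Dgat1* did not pass the test. *Dgat2* (Entrez gene 67800, GRCm38 chromosome 7, 99153663 to 99182713), which esterifies mainly newly made fatty acids, was listed at 1272 and 1177 FPKM in Ctrl and at 823 FPKM in both cKO libraries. The cKO libraries were nearly equal and far below Ctrl. The mean fell by 32.8%, from 1225 ± 67.0 to 823 ± 0.0990 FPKM (SD, n = 2 each), which is -0.57 as a log2 fold change (SE 0.0763, 95% confidence interval -0.75 to -0.39, limma adjusted p = 0.00243). Without Ctrl replicate 1 it was -0.52 with an adjusted p = 0.0696. *Dgat1* (Entrez gene 13350), which also re-esterifies fatty acids set free by lipolysis, had 135 and 133 FPKM in Ctrl and 136 and 137 FPKM in cKO. The log2 fold change was 0.03, and its 95% confidence interval of -0.10 to 0.16 lay wholly above that of *Dgat2*. *Dgat2* made up 90.4% and 89.9% of the summed FPKM of both genes in Ctrl and 85.8% and 85.7% in cKO (exact permutation p = 0.333, the smallest possible), and it exceeded *Dgat1* by 9.45 and 8.87 times in Ctrl and by 6.06 and 6.00 times in cKO.

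The monoacylglycerol acyltransferases, which make diacylglycerol from monoacylglycerol and so bypass glycerol 3-phosphate, fell with *Dgat2*. *Mogat1* went from 31.5 and 34.0 FPKM in Ctrl to 21.0 and 22.4 FPKM in cKO, a log2 fold change of -0.57 (SE 0.0665, limma adjusted p = 0.00151). *Mogat2*, a low-level gene, went from 2.04 and 1.73 FPKM to 0.75 and 0.65 FPKM (log2 fold change -0.76, limma adjusted p = 0.00512). Both cKO libraries were below both Ctrl libraries for each gene. Without Ctrl replicate 1 the call of *Mogat2* was lost (log2 fold change -0.68, adjusted p = 0.0576) and that of *Mogat1* was kept. With a pseudocount of 0.1 the log2 fold change of *Mogat2* was -1.31. Over the whole list of 28 other pathway genes, 26 were tested, and their median log2 fold change was -0.05. Of these, 4 were called higher and 4 lower, where 12.0% of all genes tested were called higher and 13.8% lower. The counts by themselves therefore say little about the list.

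Ratios of a pair of genes within a library do not depend on a scaling between libraries. The pairs shown were chosen after their values were seen. *Gpd1* was 1.11 and 1.37 times as high as *Dgat2* in the Ctrl libraries and 3.68 and 3.13 times as high in the cKO libraries. This separation follows from the rise of *Gpd1* and the fall of *Dgat2* given above and is not a further result.

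**Figure D3:**
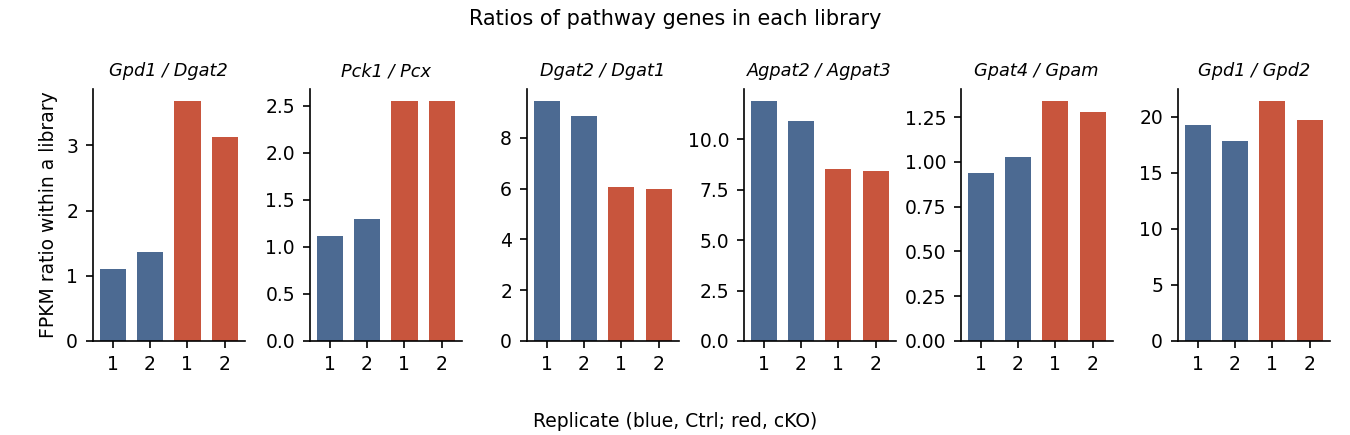
Ratio of the FPKM of a pair of genes within each library (bars from 0; blue, Ctrl replicates 1 and 2; red, cKO replicates 1 and 2; each panel has its own axis). The ratios Gpd1/Dgat2, Pck1/Pcx and Gpat4/Gpam are higher and Dgat2/Dgat1 and Agpat2/Agpat3 lower in both cKO libraries, and Gpd1/Gpd2 is higher by a small margin (19.7 and 21.4 against 17.8 and 19.3).

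The direction of all 10 members was the same in each alternative in which they could be tested. The span of the log2 fold change was 0.73 to 1.0 for *Gpd1*, 0.46 to 0.71 for *Pck1*, 0.25 to 0.36 for *Agpat3*, -0.69 to -0.52 for *Dgat2* and -0.45 to -0.25 for *Lpin3*. For *Gpd1* and *Pck1* the lowest value was that after quantile normalization. Without Ctrl replicate 1 every call among the members was lost. The log2 fold changes were then 0.79 for *Gpd1*, 0.55 for *Pck1*, 0.31 for *Agpat3*, -0.52 for *Dgat2* and -0.37 for *Lpin3*. Of the Ctrl libraries, replicate 1 had the larger summed FPKM of the muscle genes (2616 against 1771). Any part of this in the loss of calls was not tested.

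**Figure D4:**
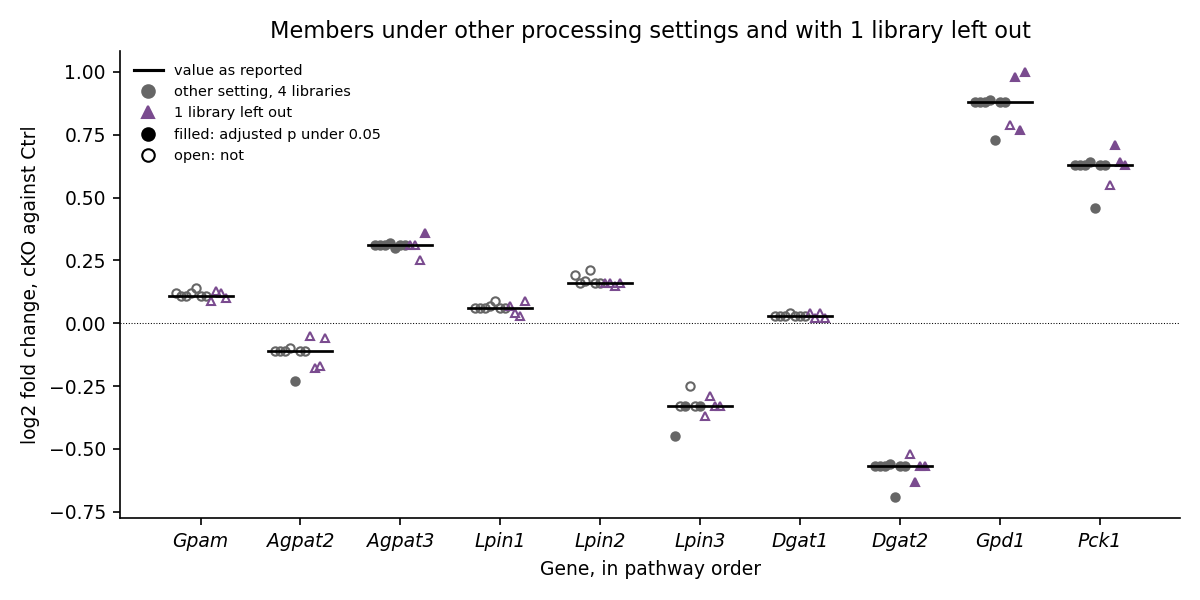
Log2 fold change of each member as reported (line) and under each alternative (grey circles, other settings with 4 libraries; purple triangles, 1 library left out; filled, adjusted p under 0.05). No value crosses 0, and Gpd1, Pck1 and Dgat2 are filled except without Ctrl replicate 1.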

How the data were processed

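RNA-seq of ingWAT was done by the authors with poly(A) selection and 50 bp single-end reads. The deposited table gives FPKM per gene and library, made by the authors with no scaling between libraries stated. The submitters' processing notes name HISAT2 2.0.4, RSEM 1.2.12 and mm10. A RefSeq table for GRCm38 held 18977 of the 19030 gene IDs and was used for names, positions and lengths. No read counts are given, so depth was estimated from 294 short RNA genes up to 6 reads, where between 82.6% and 87.4% of the values used were whole reads within 0.1. On 3 simulated libraries the largest error was 2.45%. Members' reads assume the shortest annotated transcript.

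Libraries were grouped by their titles. The values were compared with limma 3.58.1 in R 4.3.3 (eBayes with a trend) on log2(FPKM + 1), for genes averaging 1 FPKM or more, two-sided, with Benjamini-Hochberg adjustment. On simulated data of 12658 genes, 200 of 200 changed genes and 15 unchanged ones were called. The smallest change simulated was larger than those of *Agpat3*, *Lpin3* and *Pcx*, and the simulated spread depended only on level. The simulation therefore does not show how well changes as small as these are found. Shares were compared by an exact permutation test. The 10 members, the 28 other pathway genes and the marker lists were chosen with earlier results of these data known. All members are named, and of the other genes those called and those of a step shared with a member. As alternatives the replicate number was added as a block, the pseudocount was set to 0.1, the filter was dropped or raised to 5 FPKM, libraries were scaled by quantiles or by median ratios, the trend was dropped, and each library was left out, where a lone library is taken to vary like the other genotype.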

Additional observations from a re-analysis of the deposited data

How the results depend on the processing

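The values rest on 2 libraries per genotype. The count of all genes called was 3269, 1762 without the filter, and between 877 and 2429 with 1 library left out. Of the members, between 0 and 3 were called higher with 1 library left out, and between 0 and 1 lower. The members called lower numbered 1 without the filter, 1 with a mean FPKM of at least 5 (where *Lpin2* and *Lpin3*, among other low genes, were not tested), and 1 with the replicate number as a block. The count of other pathway genes called lower was 4, and between 2 and 6 with 1 library left out, *Gpat3* and *Cept1* being added without cKO replicate 2. The correlation of same-numbered deviations was 0.01 and the numbers were not taken as pairs. With the replicate block 3383 genes were called, 3 members higher and 1 lower, where *Lpin3* had an adjusted p = 0.0566. Reversed signs occurred for *Gpd1l* (-0.02 without Ctrl replicate 1, and from -0.12 to 0.12 over the left-out libraries) and *Pck2* (0.04 without cKO replicate 1, range -0.12 to 0.04), both near 0. The difference in the *Dgat2* share lay between -4.66 and -4.10 points, that of *Lpin1* between 0.296 and 0.605, that of *Lpin2* between 0.372 and 0.514 and that of *Lpin3* between -1.03 and -0.755. Where a library was left out fewer samples entered the test, and for the other settings the cause was not tested.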

Other observations

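Phosphatidate and diacylglycerol are also drawn off into phospholipids, and of 7 genes for these branches 1 was called. Of all genes tested 25.8% were called in either direction, so this count by itself says little about the branches. *Crls1*, the cardiolipin synthase of the inner mitochondrial membrane, went from 44.8 and 48.7 FPKM in Ctrl to 72.8 and 68.0 FPKM in cKO, a log2 fold change of 0.58 (SE 0.0667, limma adjusted p = 0.00144). Both cKO libraries were above both Ctrl libraries. *Pgs1*, which makes the phosphatidylglycerol phosphate from which cardiolipin is built, had 22.1 and 21.1 FPKM in Ctrl and 21.8 and 22.7 FPKM in cKO (95% confidence interval of the log2 fold change -0.10 to 0.19). *Chpt1*, which makes phosphatidylcholine from diacylglycerol, was among the highest of all the pathway genes, at 916 and 976 FPKM in Ctrl and 903 and 935 FPKM in cKO, ranges that overlapped. *Cept1*, *Cds1*, *Cds2* and *Selenoi* were not called either, with log2 fold changes between -0.20 and 0.01.

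Of the lipid phosphate phosphatases, membrane enzymes unrelated to the lipins that also act on phosphatidate, *Plpp3* fell from 89.9 and 76.9 FPKM in Ctrl to 47.9 and 46.4 FPKM in cKO, a log2 fold change of -0.81 (SE 0.0802, limma adjusted p = 0.000905). *Plpp1* and *Plpp2* were not called, with log2 fold changes of -0.08 and -0.03. The fibroblast progenitor markers, with a summed FPKM of 1355 and 1158 in Ctrl and 717 and 741 in cKO, moved in the same direction as *Plpp3*. So did all 6 endothelial markers and all 13 muscle genes, while the brown adipocyte, B cell and T cell markers went the other way. The part of any of these in the fall of *Plpp3* was not tested.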
